A study of Mus musculus with 31 samples.

Results

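The 7 genes described here encode the SREBP transcription factors and the proteins that hold them in, carry them from and cut them out of membranes. They were selected by symbol: every probe annotated to Srebf1, Srebf2, Insig1, Insig2, Scap, Mbtps1 or Mbtps2 was taken, which gave 17 of the 56605 probes on the array and 7 of 37074 gene names. RNA was measured in livers of 31 male C57BL6/J mice, 1 array per mouse, in 4 groups. The ChREBPβ-deficient mice (n = 8) carry a CRISPR/Cas9 deletion of exon 1b of Mlxipl, the first exon of the short ChREBP isoform, and were set beside their WT littermates (n = 8). The total ChREBP-KO mice (n = 7) are Mlxipl-null and lack both the α and the β isoform, and were set beside WT littermates of their own line (n = 8). Replicate 3 of the total ChREBP-KO mice was not analysed here. Neither deletion is restricted to the liver. All 4 groups went through the same 24-hour fast, followed by 18 hours of access to food and to water containing 20% glucose, so every liver was taken in the refed state. No age was used here.

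SREBPs are made as precursors anchored in the endoplasmic reticulum. There SCAP binds the precursor. When sterols are plentiful, an INSIG protein binds SCAP and keeps the pair in place, and when sterols fall or insulin rises the pair leaves in COPII vesicles for the Golgi, where the site-1 protease (Mbtps1) and then the site-2 protease (Mbtps2) free the active factor. SREBP-1c, from Srebf1, drives fatty acid synthesis in the fed liver, and SREBP-2, from Srebf2, drives cholesterol synthesis and uptake. ChREBP, from Mlxipl, is the glucose-responsive factor that acts on many of the same lipogenic genes. The arrays read RNA only, and whether precursor protein was retained or cleaved was not measured.

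Insig2 was lower by all 3 of its probes in total ChREBP-KO mice, and the 1 that reads its spliced message is shown. It matches chr1:123203517-123203752 (mm9, minus strand) and its 60 bases are spread over 236 genomic positions, 176 of which are not in the probe, as where a message is spliced.
Insig2 probe A_55_P2616841: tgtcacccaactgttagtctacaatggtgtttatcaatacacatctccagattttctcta

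The RefSeq promoters of 3 members are shown because their RNA behaved differently, Srebf1 and Insig2 lower and Insig1 without a called change in total ChREBP-KO mice. All 7 genes matched the RefSeq table (GRCm38.p6), with 12 start sites among them. The 250 bases before each start were searched on both strands, with no overlap between matches. The motifs were the E-box CACGTG, the NF-Y box CCAAT, the D-boxes TTATGTAA and TTACGTAA, and the sterol regulatory element of the LDL receptor gene. Only the exact letters of that element were searched, so the lack of a match does not exclude other forms of a sterol regulatory element. Capitals mark the matches.
Insig2, chr1:121332590-121332839, minus strand: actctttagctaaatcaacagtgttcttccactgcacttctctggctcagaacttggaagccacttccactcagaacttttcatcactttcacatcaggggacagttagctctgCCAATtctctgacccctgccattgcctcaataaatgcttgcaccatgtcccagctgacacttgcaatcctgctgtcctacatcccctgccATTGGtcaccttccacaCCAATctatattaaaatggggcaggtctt
Srebf1, chr11:60210472-60210721, minus strand: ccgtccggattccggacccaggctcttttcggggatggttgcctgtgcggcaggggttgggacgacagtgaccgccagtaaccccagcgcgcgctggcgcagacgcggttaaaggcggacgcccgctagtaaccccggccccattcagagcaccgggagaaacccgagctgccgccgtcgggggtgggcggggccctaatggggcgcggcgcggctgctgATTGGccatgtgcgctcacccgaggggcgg
Insig1, chr5:28071162-28071411, plus strand: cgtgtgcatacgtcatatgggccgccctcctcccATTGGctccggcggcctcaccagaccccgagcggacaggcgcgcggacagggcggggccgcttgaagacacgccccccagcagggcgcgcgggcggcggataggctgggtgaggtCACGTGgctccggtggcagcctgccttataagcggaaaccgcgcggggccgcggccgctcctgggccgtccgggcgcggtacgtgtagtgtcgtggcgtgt
The most upstream of the 3 Insig2 starts had CCAAT at 136 and 29 bases before the start and, on the opposite strand, at 46, whereas the other 2 Insig2 windows held none of the motifs. The Srebf1 window shown had CCAAT on the opposite strand at 30 bases, another Srebf1 window had CCAAT at 166, and the Insig1 window had an E-box at 101 and CCAAT on the opposite strand at 216. An E-box also lay 40 bases before 1 of the 2 Scap starts, and the Srebf2 window had CCAAT on the opposite strand at 135. No motif was found for Mbtps1 or Mbtps2. Of 32851 mouse promoter windows of this length, 6.02% held CACGTG, 33.8% held CCAAT and 0.0731% held the LDL receptor form of the sterol regulatory element. The D-boxes TTATGTAA and TTACGTAA were held by 0.819% and 0.113%. These are matches of letters, and no factor's binding was measured.

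Of the 17 probes, 16 passed the filter on weak spots (a signal clear of background in 26 of the arrays, or in 6 of a single group), among 36059 probes tested. Probe A_52_P491718 of Mbtps2 passed on 3 of 31 arrays and was not tested. Levels are log2 of the quantile-normalized median signal and say nothing about 1 gene against another, because probes differ in brightness. The 6 hepatocyte markers were bright in every group. The pancreatic markers Pnlip, Pnliprp1 and Prss2 were together clear of background on 3 arrays. Fat RNA was flagged by Adipoq alone, whose log2 signal was above 7 on 3 arrays. These made 5 arrays in all, of which 4 were WT littermates of the total line (replicates 2, 5, 7 and 8) and 1 was total ChREBP-KO replicate 6. The log2 of the summed signal of the 8 pancreatic markers, 4 of which passed the filter, ranged from 9.31 to 13.57 in WT littermates of the total line and reached at most 9.96 in any other group. That of the 6 adipocyte markers, of which 5 passed, ranged from 17.25 to 17.75 in total ChREBP-KO mice and from 16.15 to 17.10 in their WT littermates. Most of this sum is Car3, a carbonic anhydrase that liver also makes, at 17.19 to 17.67 and 16.02 to 17.09, whereas Adipoq reached 8.81 and 7.47. Retn reached 8.91 and 8.03 in the same groups, but Lep (8.04 to 8.48) and Plin1 (5.17 to 6.16) varied little over all arrays. Cfd reached 12.49 in ChREBPβ-deficient mice, where no array was flagged. Stellate markers, summed over 4 genes, reached 16.32 and 15.53 in total ChREBP-KO replicates 1 and 4, against at most 14.81 in any other array of the line. Biliary markers, also 4 genes, reached 11.56 in total ChREBP-KO replicate 5, against at most 10.42 in the WT littermates. The part of these cells in the results was not tested beyond leaving out the arrays. Mlxipl, by its brightest probe A_55_P2119957, lay between 13.89 and 14.30 in total ChREBP-KO mice against 15.14 to 15.48 in their WT littermates, and between 14.40 and 14.84 in ChREBPβ-deficient mice against 14.88 to 15.33 in theirs. The groups did not overlap in either line. The probe was still bright in the knockouts, and whether it lies in the deleted sequence is not known here.

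In total ChREBP-KO mice, Srebf1, Insig2 and Scap RNA fell, Insig1 did not pass the test, and the proteases showed small differences that varied with the probe. Of the 16 probes, 8 were called by limma at an adjusted p under 0.05, 6 lower (in 4 genes) and 2 higher (in 2 genes). Over all probes the same comparison called 29.1%, with 14.6% lower and 14.5% higher. Every knockout array lay below every WT array for 4 member probes, 1 of Srebf1 and 3 of Insig2, and this held for 4.14% of all probes. The median difference over the 16 probes was -0.08 on the log2 scale, beside 0.01 over all 36059.

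**Figure D1:**
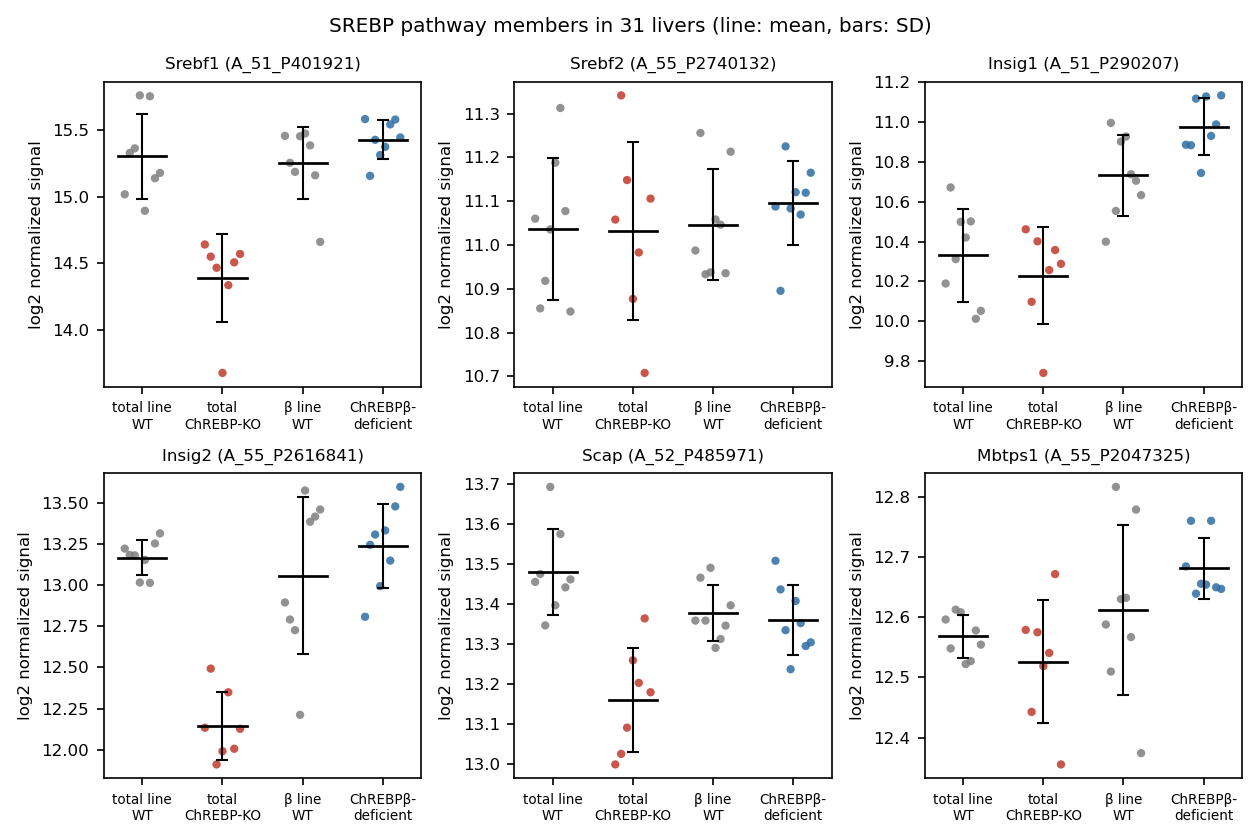
Log2 normalized signal of 1 probe for each of 6 genes, 1 point per liver, with the group mean (line) and SD (bars); the vertical scale differs between panels. Srebf1 and Insig2 of total ChREBP-KO mice lie below all their WT littermates, while Srebf2, Insig1 and Mbtps1 overlap with theirs.

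Srebf1 is read by a single probe, A_51_P401921 (chr11:60013214-60013273, mm9), which cannot tell SREBP-1a from SREBP-1c messages. It ranged from 13.68 through a median of 14.51 to 14.64 in total ChREBP-KO mice and from 14.89 through 15.25 to 15.76 in their WT littermates. All 7 knockouts were below all 8 WT mice, with replicate 5 of the knockouts, the array with high biliary markers, far below the rest. The difference was -0.91 ± 0.14 (SE, 95% interval -1.18 to -0.63, adjusted p = 5.38e-06, limma), that is 1.88-fold lower. In bulk liver, fewer cells of a type and less RNA per cell cannot be told apart.

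Srebf2 did not move with Srebf1. Its brighter probe, A_55_P2740132, ran from 10.71 to 11.34 in total ChREBP-KO mice and from 10.85 to 11.31 in WT littermates, so the groups overlapped throughout, and the difference was -0.01 (95% interval -0.16 to 0.15). The dimmer probe, A_51_P377508, which passed the background test on 27 arrays, gave 7.98 to 8.44 with a median of 8.28 in knockouts, and 7.42 to 8.25 with a median of 7.99 in WT mice. It was higher by 0.28 ± 0.11 (SE, adjusted p = 0.0427, limma), but the probes of this gene disagree and the call was lost with no filter (adjusted p = 0.0648), with each slide given its own term (0.0689), with the total line fitted by itself (0.0567), without the 3 arrays with high stellate or biliary markers (0.0844) and on leaving out any of 9 single arrays (highest adjusted p = 0.109).

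Insig2, whose product retains SCAP in the endoplasmic reticulum and whose liver message is known to be low after insulin, was lower by all 3 of its probes. The intron-spanning probe A_55_P2616841 ranged from 11.91 through 12.13 to 12.49 in total ChREBP-KO mice and from 13.01 through 13.18 to 13.32 in WT littermates. The highest knockout was thus well below the lowest WT mouse. The difference was -1.02 ± 0.15 (SE, adjusted p = 3.04e-06, limma), a 2.03-fold lower signal. Probes A_51_P439452 and A_55_P2500188 gave -0.95 ± 0.18 (adjusted p = 0.000184) and -1.03 ± 0.19 (adjusted p = 9.87e-05, limma). These probes share 46 bases and are not independent of each other, whereas the intron-spanning probe lies 2373 bases away. With Dbp signal as a covariate, described with the Dbp values, the differences were smaller, at -0.44 (A_51_P439452), -0.50 (A_55_P2500188) and -0.64 (A_55_P2616841). The probes do not separate the alternative Insig2 starts.

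Insig1, the other retention factor and itself an SREBP target, ranged from 9.74 through 10.29 to 10.46 in total ChREBP-KO mice and from 10.01 through 10.37 to 10.67 in WT littermates. The groups overlapped. The difference of -0.10 (95% interval -0.32 to 0.11, adjusted p = 0.506, limma) excludes from its interval any fall beyond 0.32.

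Scap, the escort protein, ranged from 13.00 through 13.18 to 13.36 in total ChREBP-KO mice and from 13.35 through 13.46 to 13.69 in WT littermates. Only knockout replicate 7, at the top of its group, overlapped with the lowest WT mouse. The difference was small but tight, -0.32 ± 0.06 (SE, 95% interval -0.43 to -0.21, adjusted p = 4.25e-05, limma), or 1.25-fold lower.

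The site-1 protease gene Mbtps1 has 4 probes, of which 1 was called. That probe, A_52_P406482, is dim and lies farthest upstream of the 4. It ranged from 5.93 to 6.31 in total ChREBP-KO mice and from 6.28 to 6.48 in WT littermates and was lower by -0.23 ± 0.06 (SE, adjusted p = 0.00238, limma). The other 3 probes, of which A_55_P2047325 and A_55_P2912526 overlap in sequence position, including the brightest at 12.36 to 12.67 in knockouts and 12.52 to 12.61 in WT mice, differed by -0.04 to 0.18 with adjusted p from 0.127 to 0.705. For the site-2 protease gene Mbtps2, A_55_P2925549 was higher by 0.20 ± 0.06 (SE, adjusted p = 0.0158, limma), at 5.29 to 5.56 in knockouts and 4.95 to 5.40 in WT mice. It passed the background test on 5 of 7 knockout and 4 of 8 WT arrays, and its call was lost with a term for each slide (adjusted p = 0.0511), with Dbp as a covariate (0.127), without the 5 arrays with pancreatic or fat RNA (0.115) and without the 3 with high stellate or biliary markers (0.137). The other 3 Mbtps2 probes differed by -0.13 to 0.00. The probes of either protease thus disagree, and no direction is given for the genes.

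The arrays with pancreatic or fat RNA fall mostly among the WT littermates of the total line. Without all 5 of them, an alternative chosen after the values were seen, 7 of the 16 probes were called, 6 lower and 1 higher, with -1.07 for Srebf1, -0.98 to -1.07 for Insig2 (A_51_P439452, A_55_P2500188 and A_55_P2616841 together) and -0.36 for Scap. Without the 3 total ChREBP-KO arrays with high stellate or biliary markers, likewise chosen after the values were seen, 6 probes were called, all lower, with -0.81 for Srebf1, -0.88 to -0.97 for Insig2 and -0.29 for Scap, and the calls of Srebf2 A_51_P377508 and Mbtps2 A_55_P2925549 were lost.

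In ChREBPβ-deficient mice no member probe was called. The question was whether loss of the β isoform alone moves these genes. Of the 16 probes 0 passed an adjusted p of 0.05 by limma and 1 had an unadjusted p under 0.05, beside 0.00277% called and 4.98% at the unadjusted p over all probes. For 0 of the 16 did the groups not overlap, beside 0.0222% of all probes. By the exact Mann-Whitney test 1 probe had an unadjusted p under 0.05 and 0 passed after adjustment. The probe that limma gave at an unadjusted p of 0.0216 (adjusted p = 0.989) was Insig1, 0.24 higher (95% interval 0.04 to 0.45), at 10.74 to 11.13 in ChREBPβ-deficient mice and 10.40 to 10.996 in WT littermates.

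Srebf1 ranged from 15.15 through 15.43 to 15.58 in ChREBPβ-deficient mice and from 14.66 through 15.32 to 15.47 in WT littermates, a difference of 0.17 (95% interval -0.09 to 0.44). The Insig2 probes gave 0.18 to 0.29, with intervals from -0.18 to 0.65. WT littermates of the β line were spread widely for Insig2: probe A_55_P2616841 ran from 12.21 to 13.58 in them (SD 0.48), against 13.01 to 13.32 in WT littermates of the total line (SD 0.11). Scap differed by -0.02 (95% interval -0.13 to 0.09), and the 4 Mbtps1 and 4 Mbtps2 probes by -0.07 to 0.14 and -0.03 to 0.00. For Srebf1, Insig2 and Scap, falls of the size found in total ChREBP-KO mice lie outside these intervals.

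**Figure D2:**
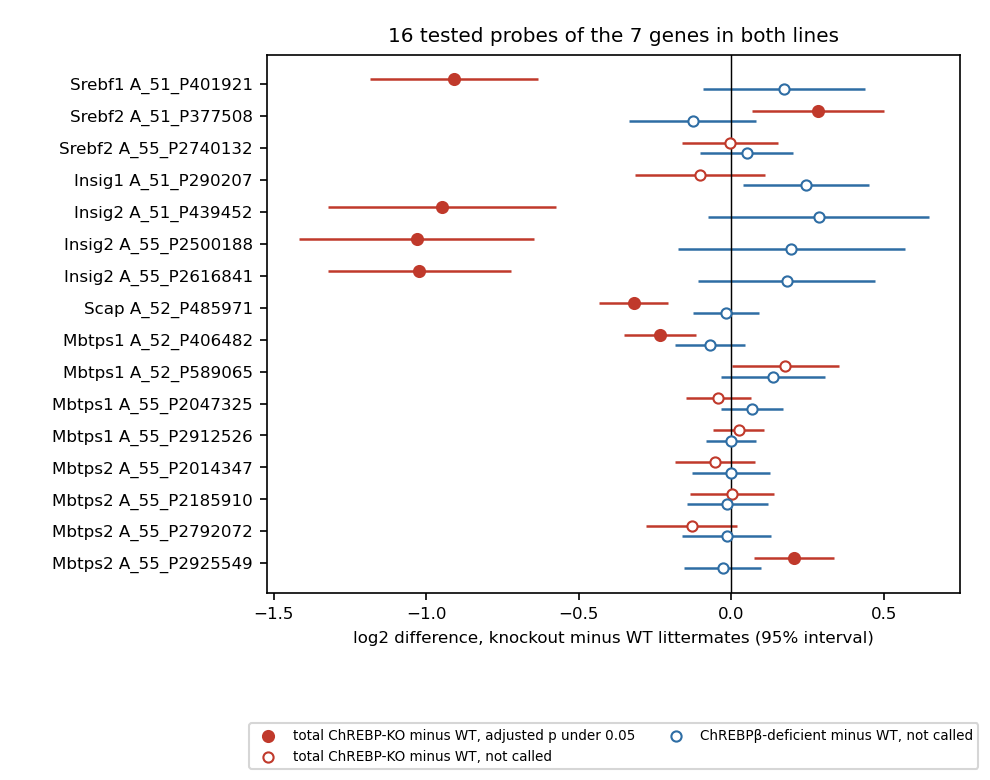
Log2 difference (knockout minus WT littermates, horizontal axis) with its 95% interval for the 16 tested probes; red, total ChREBP-KO line, blue, ChREBPβ line; filled points have an adjusted p under 0.05. Filled points lie left of 0 for Srebf1, Insig2, Scap and 1 Mbtps1 probe, right of 0 for 1 Srebf2 and 1 Mbtps2 probe, and every blue point is open.

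The difference between the knockouts' effects was tested directly as (total ChREBP-KO minus WT) minus (ChREBPβ-deficient minus WT). Of the 16 probes, 5 passed, all lower in the total line, beside 8.08% of all probes called lower and 15.1% called in either direction. Srebf1 gave -1.08 ± 0.19 (SE, adjusted p = 0.000138, limma). The Insig2 probes gave -1.24, -1.23 and -1.20 (adjusted p from 9.89e-05 to 0.00141). Scap gave -0.30 ± 0.08 (SE, adjusted p = 0.00636), a call that was lost with a term for each slide (-0.27, adjusted p = 0.121). Insig1 gave -0.35 (adjusted p = 0.108) and the dimmer Srebf2 probe 0.41 (adjusted p = 0.0569), and neither passed.

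The WT littermates of the 2 lines were compared to see how far lines differ with Mlxipl intact. Here Insig1 was the member that stood out: WT littermates of the total line ranged from 10.01 to 10.67 and those of the β line from 10.40 to 10.996, a difference of -0.40 ± 0.10 (SE, adjusted p = 0.00626, limma). Mbtps1 probe A_55_P2912526 was lower by -0.13 (adjusted p = 0.0192). These 2 of 16 probes stand beside 17.0% called over all probes (8.92% lower). Both calls were lost with a term for each slide (adjusted p = 0.145 for Insig1 and 0.0563 for Mbtps1), and that of Mbtps1 also without the 5 arrays with pancreatic or fat RNA (0.141). The mean levels of Insig1 were 10.98 in ChREBPβ-deficient mice, 10.73 in their WT littermates, 10.33 in WT littermates of the total line and 10.23 in total ChREBP-KO mice, and of the neighbours in that order only the WT groups passed the test. The Srebf1 means of the same groups were 15.42, 15.25, 15.30 and 14.39.

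Insig2 tended to be lower where the clock output gene Dbp was higher, although no relation passed after adjustment. This comparison was chosen after the values were seen. Dbp, a PAR-bZIP factor whose RNA swings widely over the day, ranged from 12.23 to 14.04 in total ChREBP-KO mice and from 9.05 to 10.95 in WT littermates, without overlap; its difference was 3.19 ± 0.99 (SE, adjusted p = 0.0143, limma). In the β line Dbp split into arrays at 8.22 to 10.05 (2 ChREBPβ-deficient and 4 WT mice) and arrays at 11.83 to 15.26 (6 and 4). Because the arrays cluster, correlations were taken within clusters of at least 6, 8 relations in all, using the lead Insig2 probe A_51_P439452 and Srebf1. Both β-line clusters pool ChREBPβ-deficient and WT mice, and the correlations did not take genotype into account. In the cluster with high Dbp, Insig2 was 13.33 to 14.10 in the 4 WT and 14.13 to 14.80 in the 6 ChREBPβ-deficient mice. Dbp reached 15.26 in those WT mice and at most 14.51 in the ChREBPβ-deficient mice. The part of genotype in the relation of that cluster was not tested. Pearson's r of Insig2 with Dbp was -0.78 in the 10 β-line arrays with high Dbp (permutation p = 0.00715, adjusted 0.0572, rho = -0.81, p = 0.00716, adjusted 0.0573, r = -0.78 without the 2 arrays farthest from the median). It was -0.66 in the 6 with low Dbp (exact permutation p = 0.140, rho = -0.77, exact p = 0.103), where it fell to -0.03 without 2 arrays. It was -0.56 in total ChREBP-KO mice (exact p = 0.190, rho = -0.71, exact p = 0.0881, r = -0.85 without 2 arrays) and -0.33 in their WT littermates (exact p = 0.414, rho = -0.29, exact p = 0.501, r = -0.24 without 2 arrays). Srebf1 gave r from -0.36 to 0.47 and rho from -0.31 to 0.37 in the same clusters, with exact or permutation p of r from 0.234 to 0.728, and r changed sign without 2 arrays in 3 of the 4.

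**Figure D3:**
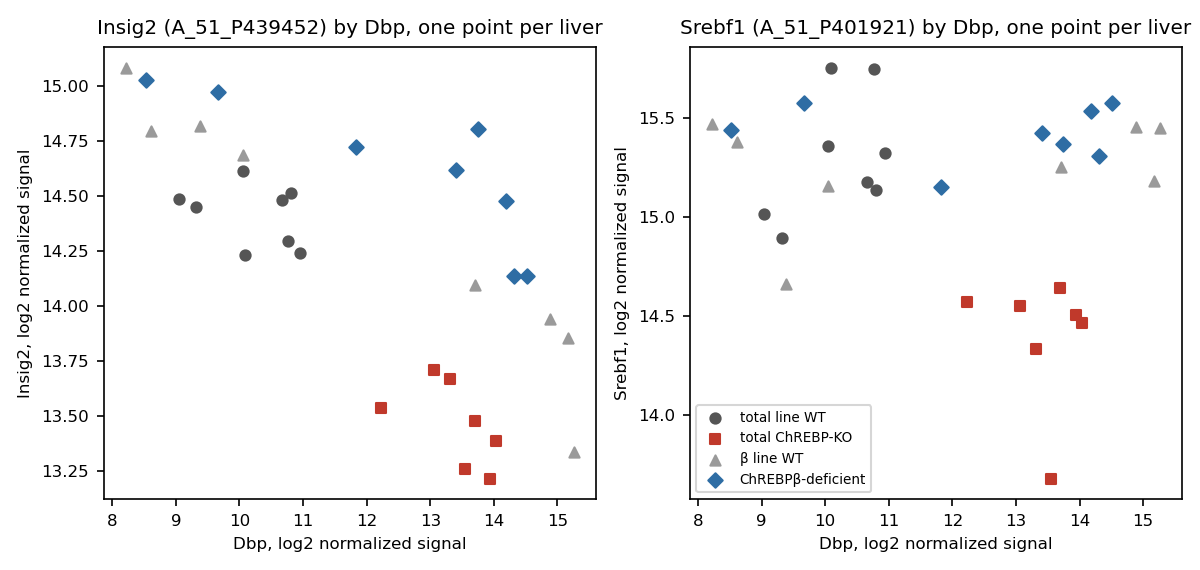
Log2 normalized signal of Insig2 (left) and Srebf1 (right) against that of Dbp, 1 point per liver, with a marker for each group. Total ChREBP-KO mice have high Dbp (12.23 to 14.04) and low Insig2 (13.21 to 13.71) and Srebf1 (13.68 to 14.64). Livers of the β line with high Dbp lie at 13.33 to 14.80 for Insig2 and 15.15 to 15.58 for Srebf1. Only WT replicate 4 of the β line (13.33) falls within the Insig2 range of total ChREBP-KO mice, and the next lowest, WT replicate 3, is at 13.86.

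With Dbp signal as a covariate, an alternative chosen after the values were seen, the Insig2 difference in total ChREBP-KO mice shrank to -0.44 ± 0.11 (A_51_P439452, adjusted p = 0.00329, limma), -0.50 ± 0.11 (A_55_P2500188, 0.00119) and -0.64 ± 0.10 (A_55_P2616841, 2.44e-05). Srebf1 stayed at -0.96 ± 0.16 and Scap at -0.37 ± 0.06. All remained called. In the total line Dbp and genotype do not overlap, so the part of Dbp in the Insig2 difference of that line cannot be told apart from genotype by these arrays. Collection times were not used here.

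Among livers of 1 genotype the 7 genes did not vary as a block. Over 21 pairs of lead probes, with group means subtracted and arrays permuted within groups, 12 coefficients were above 0, and Pearson's r ran from -0.60 to 0.51. The lead probes of Srebf2 (A_55_P2740132) and Mbtps1 (A_55_P2047325) varied in opposite directions (r = -0.60, permutation p = 0.00045, adjusted 0.00945, rho = -0.65, p = 0.00015, adjusted 0.00315, n = 31). Their r was -0.80, -0.82, -0.63 and -0.40 in the ChREBPβ-deficient, β-line WT, total ChREBP-KO and total-line WT groups, and -0.53 without 2 arrays. Correlations were not computed for the other probes of Srebf2 and Mbtps1, so this was seen for the lead probes and was not tested for the genes. Insig2 and Scap gave r = -0.43 (permutation p = 0.00339, adjusted 0.0356, rho = -0.46, p = 0.00796, adjusted 0.0720), with -0.34 without 2 arrays. Srebf1 and Insig1 gave r = 0.51 (permutation p = 0.0122, adjusted 0.0853, rho = 0.49, p = 0.0103, adjusted 0.0720), with 0.35 without 2 arrays. No other pair had an adjusted p under 0.05 by either coefficient. Srebf1 and Insig2, which fell together in total ChREBP-KO mice, gave r = -0.14 (permutation p = 0.472).

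**Figure D4:**
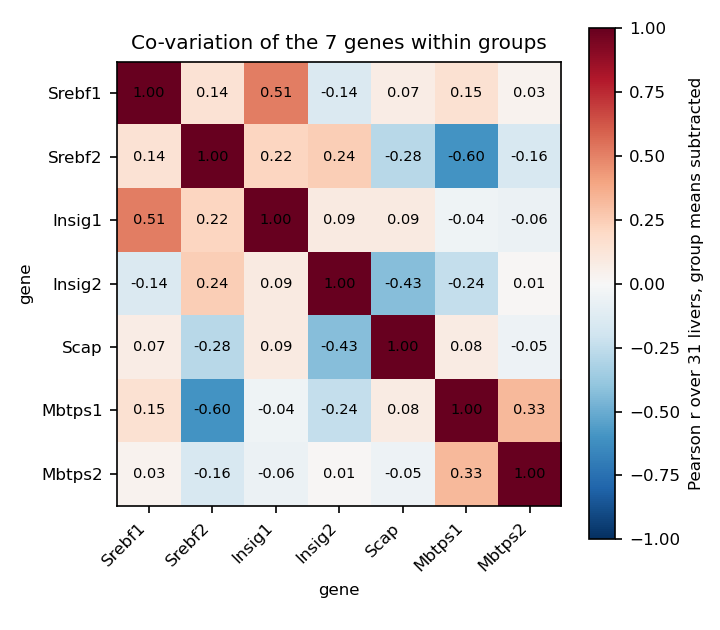
Pearson's r for each pair of the 7 genes, by their lead probes, over 31 livers after subtraction of group means; red is positive and blue negative. Most cells are pale, and the strongest values are -0.60 for Srebf2 with Mbtps1 and 0.51 for Srebf1 with Insig1.

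The genes whose group-centred signal was most like each factor's over the 31 arrays are given as a description. For Srebf1 they included Kank2 (r = 0.73) and Mid1ip1 (0.73), whose product stimulates acetyl-CoA carboxylase. The difference of Mid1ip1 in total ChREBP-KO mice was -2.06. For Insig1 they included Pstpip2 (0.72) and the transcript AK037359 (0.70). For Insig2 they were Leo1 (0.93), Asap2 (0.91) and Desi2 (0.90). For Srebf2 they were Gm29782 (0.87), Tgfbr3l (0.87) and ENSMUST00000064830 (0.87). Arrays share slides and normalization, so a likeness of this kind includes shared technical variation, whose part was not tested.

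The genes on which the SREBPs act were then counted in total ChREBP-KO mice, a gene counting when at least 1 probe was called. For a gene with more than 1 probe, the value named is that of its called probe with the largest difference, and its other probes can differ. Over all 23968 gene names 17.1% had a probe called lower and 17.3% a probe called higher. These names were read by 36059 probes, whereas the 17 genes of the next list were read by 42. A gene with more probes has more occasions to be called, so these shares run low as a background for such lists. Of 17 SREBP-1c targets of fatty acid synthesis, 14 were lower, 1 was higher and 2 (Fads1 and Fads2) were not called, with a median of -1.88 over the list's 42 probes. The largest falls were those of Thrsp (-4.82 ± 0.33), a lipogenic regulator, Pnpla3 (-3.90 ± 0.44), a lipid droplet protein, Acacb (-3.82 ± 0.25), which makes malonyl-CoA, and Elovl6 (-3.68 ± 0.33), a fatty acid elongase (SE, adjusted p from 1.16e-12 to 5.10e-08, limma). The 3 Acacb probes ranged from -3.82 to -0.03. Many genes of this list are also direct ChREBP targets, and the factors cannot be told apart by this list.

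The 22 SREBP-2 targets of cholesterol synthesis and uptake split instead: 7 had a probe called lower, 9 a probe called higher, with 1 gene counted in both, and 7 were not called. The median over 42 probes was 0.18. Late enzymes lay on both sides, with Sc5d at -1.04 ± 0.09 and Dhcr7 at -0.74 ± 0.14, and Msmo1 at 1.002 ± 0.16 and Tm7sf2 at 0.75 ± 0.14 (SE, adjusted p from 3.65e-10 to 0.00015, limma).

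**Figure D5:**
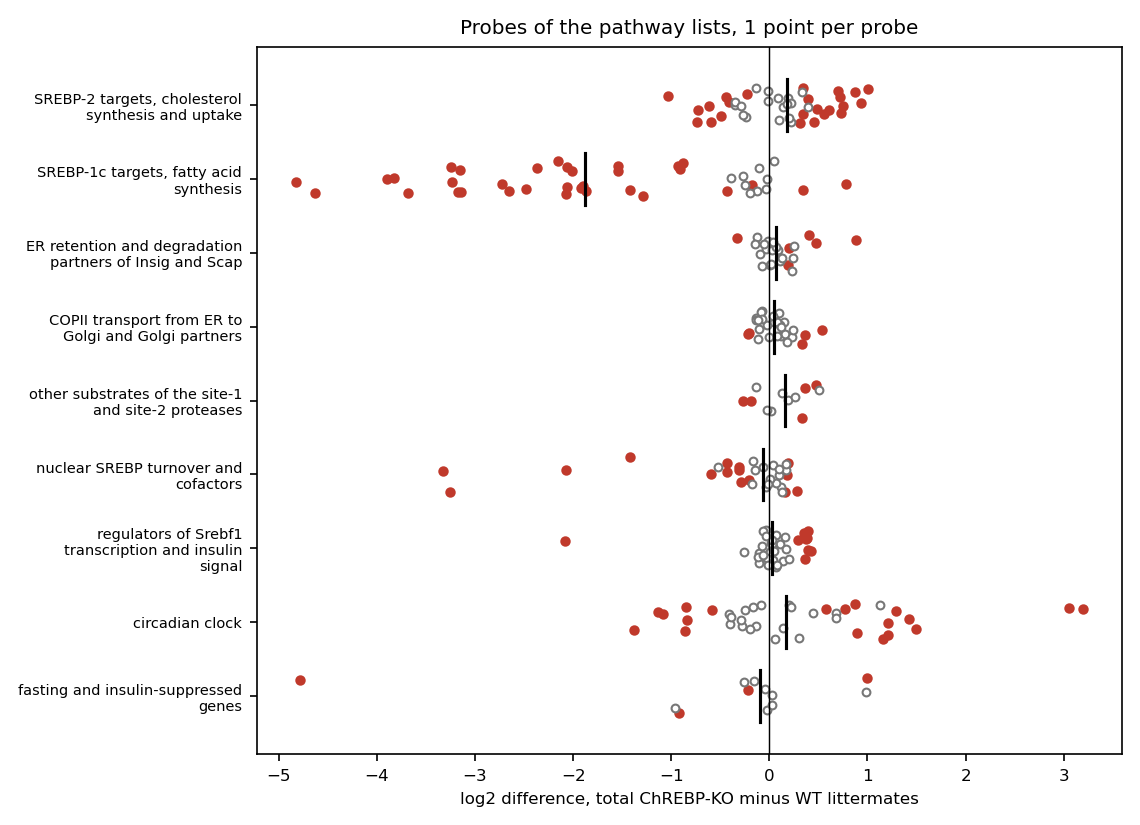
Log2 difference (total ChREBP-KO minus WT littermates, horizontal axis) of every tested probe of 9 gene lists around the SREBP pathway; red points have an adjusted p under 0.05, open points do not, and the vertical bar is the list's median. The SREBP-1c targets lie far left of 0 (median -1.88), whereas the other medians lie between -0.10 and 0.18.

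Around the processing step itself, differences were smaller. Of 16 partners that retain or degrade INSIG and SCAP in the endoplasmic reticulum, 6 were higher and 1 lower, led by the ubiquitin ligase Syvn1 (0.88 ± 0.18), Erlin1 (0.47 ± 0.08), Rnf5 (0.41 ± 0.06) and Trim21 (-0.33 ± 0.09). Of 13 genes of COPII transport and its Golgi partners, 2 were higher, Crtc2 (0.54 ± 0.10) and the cargo adaptor Sec24a (0.37 ± 0.07), and 2 lower, the coat protein Sec13 (-0.21 ± 0.06) and Paqr3 (-0.22 ± 0.08), which tethers SCAP to the Golgi. Of 8 other substrates of the same proteases, 2 were higher, Atf6 (0.48 ± 0.07) and Creb3l3 (0.37 ± 0.12), and 2 lower, Gnptab (-0.27 ± 0.07) and Creb3 (-0.18 ± 0.06). The adjusted p of these 12 named genes ran up to 0.0433 (limma, SE after ±). Among those with more than 1 probe, only 1 was called for Erlin1 (probes from 0.11 to 0.47) and Sec24a (0.05 to 0.37). The same held for Paqr3 (-0.22 to -0.02), Gnptab (-0.27 to -0.02) and Creb3 (-0.18 to 0.02).

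Of 12 genes of nuclear SREBP turnover and cofactors, 5 were lower and 3 higher, with Lpin1, a phosphatidate phosphatase that also restrains nuclear SREBP, at -3.32 ± 0.21, Ppargc1b, a coactivator, at -0.60 ± 0.21, Ccnc at -0.43 ± 0.06 and Gsk3b, a kinase that marks SREBP for degradation, at -0.43 ± 0.08 (SE). Of 16 regulators of Srebf1 transcription and insulin signalling, 1 was lower, Bhlhe40 (-2.08 ± 0.23), and 3 higher, the NF-Y subunit Nfyb (0.42 ± 0.06), Mtor (0.38 ± 0.11) and Rxra (0.29 ± 0.10), the partner of LXR. Of 10 fasting and insulin-suppressed genes, 2 were lower, among them G6pc (-4.79 ± 0.50), the glucose-6-phosphatase that is also a ChREBP target, and Cpt1a (0.995 ± 0.20) was higher. Of 17 clock genes 8 were higher, among them Dbp, Per1 (1.50 ± 0.29) and Per3 (1.42 ± 0.53), and 4 lower, with Arntl at -1.38 ± 0.47. The largest adjusted p among the genes named for these 4 lists was 0.0403 (limma). Only 1 of several probes was called for Ppargc1b (probes from -0.60 to -0.52), Mtor (0.07 to 0.38) and Rxra (0.17 to 0.29). The same held for Per1 (-0.09 to 1.50) and Per3 (1.125 to 1.42). The Gsk3b probes ranged from -0.43 to 0.07 and the Ccnc probes from -0.43 to -0.15. In ChREBPβ-deficient mice 0 genes of the 9 lists were called, with list medians from -0.01 to 0.17 and a smallest adjusted p of 0.972 by limma..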

How the data were processed

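Liver arrays of 31 mice were grouped by the genotype and replicate number in the sample labels. The authors deposited scanner files (Agilent Feature Extraction 10.10.1.1, per the submitters' processing notes) whose spot intensity values are not yet normalized. They also deposited a table of log2 values. Per their methods, median intensities were read in with limma and weak spots filtered out. Quantile normalization with preprocessCore and the median over repeated probes followed. Probe positions are on mm9 and gene names follow the array design.

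Here log2 of the median intensity, without background subtraction, was filtered (flagged as found, positive and clear of background in 26 arrays, or in 6 of a single group), quantile normalized and reduced to the median per probe name. The 4 groups were fitted together with limma 3.58.1 in R 4.3.3, and p-values were adjusted by Benjamini-Hochberg over 36059 probes with a threshold of 0.05. Saturated spots and outlier flags were kept. Correlations used permutation tests with 100000 resamples, or all permutations where 8 arrays or fewer were compared (scipy 1.17.1). The precision is limited by 7 or 8 arrays per group. The limma step was tested on simulated data for the contrast of total ChREBP-KO mice with WT littermates, and the other steps were not.

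The members and the gene lists were chosen with earlier results of these data known. Every probe of the 7 genes is reported; from each list up to 4 called genes with the largest difference in total ChREBP-KO mice are named, and Fads1 and Fads2 were named after their values were seen. Some genes that this rule selects are not reported here. The lead probe of a gene is the one with the highest mean. Replicate numbers were not taken as pairs, since the labels do not say what they mark and not every same-numbered pair correlated over 0.1: 6 of 8 did in the β line (r from -0.16 to 0.53) and 2 of 7 in the total line (-0.21 to 0.24). The alternatives tried were other signals, scalings, background and filters, the deposited log2 values, slide, scan date or replicate number as blocks, separate fits, other moderation, exact Mann-Whitney tests and leaving out each array.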

Additional observations from a re-analysis of the deposited data

Results flagged for a closer look

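For 5 probes the effect of the knockout differed between the lines by a test of the difference itself (limma, adjusted p under 0.05): Srebf1 A_51_P401921 (-1.08), Insig2 A_51_P439452 (-1.24), A_55_P2500188 (-1.23) and A_55_P2616841 (-1.20), and Scap A_52_P485971 (-0.30), each as the log2 effect in the total line minus that in the β line.

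In 4 of 64 groups of a probe's values 1 mouse stood apart from the rest of its group by Dixon's criterion, where chance gives about 3.2. Srebf1 was 13.68 in total ChREBP-KO replicate 5, with the other knockouts at 14.34 to 14.64, and 14.66 in replicate 8 of the β line's WT littermates, with the others at 15.16 to 15.47. Srebf2 A_55_P2740132 was 10.90 in ChREBPβ-deficient replicate 2, with the others at 11.07 to 11.23. Mbtps1 A_52_P589065 was 7.92 in total ChREBP-KO replicate 8, with the others at 7.43 to 7.62.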

How the results depend on the processing

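The falls of Srebf1 and of the 3 Insig2 probes in total ChREBP-KO mice, and their differences between the lines, kept their direction and an adjusted p under 0.05 in every alternative fitted by limma. Their size moved most with Dbp as a covariate, where Insig2 A_51_P439452 was -0.44 in place of -0.95 and A_55_P2500188 -0.50 in place of -1.03, and their differences between the lines were -0.82 and -0.80 in place of -1.24 and -1.23. The number of member probes called in total ChREBP-KO mice, 8, was 6 to 9 under other settings and 7 to 8 on leaving out single arrays. There were 6 lower and 0 higher when each slide had its own term or the 3 arrays with high stellate or biliary markers were left out. When all arrays had to pass the filter, 6 were lower. The probes called higher in the main fit, Srebf2 A_51_P377508 and Mbtps2 A_55_P2925549, were then filtered out and not tested. In ChREBPβ-deficient mice the number called was 0 throughout (0 to 0 on leaving out single arrays) except 1 by the unadjusted Mann-Whitney test. The count for the difference of effects, 5, was 4 to 7, and 5 to 6 on leaving out single arrays. The count between WT groups, 2, was 0 with a term for each slide, 4 by the unadjusted and 1 by the adjusted Mann-Whitney test, 1 without the 5 arrays with pancreatic or fat RNA, and 1 to 2 on leaving out single arrays (1 without replicate 3 of the β line's WT littermates). Co-variation passed for 1 pair by Spearman's coefficient. The replicate numbers were not taken as pairs, although Dbp was high in ChREBPβ-deficient replicates 1 to 6 and in replicates 1 to 4 of their WT littermates and low in the others. With the replicate block the counts were 8, 0, 7 and 2, the 7 including Srebf2 A_51_P377508 (0.39) and Mbtps2 A_55_P2925549 (0.25). The precision is limited by 7 or 8 arrays per group and, for the dim Mbtps2 and Srebf2 probes, by signals near background.

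Reversed signs were found for uncalled differences only, and the cause was not tested. In total ChREBP-KO mice, Mbtps1 A_55_P2912526 became -0.0068 (processed signal) and -0.011 (median signal scaled to the 75th percentile), Mbtps1 A_55_P2047325 0.006 (slide term), Mbtps2 A_55_P2014347 0.0385 (median signal), Mbtps2 A_55_P2185910 -0.0035 (no filter) and -0.0612 (Dbp), and Srebf2 A_55_P2740132 0.0356 (Dbp). In ChREBPβ-deficient mice, Mbtps2 A_55_P2185910 became 0.0134 (processed), 0.0 (median) and 0.0303 (slide), A_55_P2925549 0.0111 (processed) and 0.019 (slide), A_55_P2792072 0.0358 (slide), A_55_P2014347 0.0036 (median), 0.0094 (normexp background) and 0.003 (scan date), and Mbtps1 A_55_P2912526 0.0041 (scan date). For the difference of effects, Mbtps2 A_55_P2014347 became 0.0993 (processed) and 0.035 (median), and A_55_P2185910 -0.036 (Dbp). Between WT groups, Srebf2 A_55_P2740132 became 0.0001 (median), 0.0734 (slide) and 0.0358 (without the 5 arrays), Srebf2 A_51_P377508 0.0264 and Srebf1 -0.0452 (slide), and the Insig2 probes -0.1855, -0.1842 and -0.0939 (Dbp).

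On leaving out single arrays, the ranges that crossed 0 were, in total ChREBP-KO mice, -0.057 to 0.0487 for Srebf2 A_55_P2740132 and -0.0279 to 0.0343 for Mbtps2 A_55_P2185910. In ChREBPβ-deficient mice they were -0.0202 to 0.0185 for Mbtps1 A_55_P2912526, and -0.0458 to 0.0303, -0.0366 to 0.0301 and -0.0401 to 0.013 for Mbtps2 A_55_P2014347, A_55_P2185910 and A_55_P2792072. For the difference of effects they were -0.0129 to 0.0854 for Mbtps1 A_52_P589065 and -0.0274 to 0.0472 for Mbtps2 A_55_P2185910. Between WT groups they were -0.0943 to 0.0291 and -0.0484 to 0.021 for Srebf2 A_51_P377508 and A_55_P2740132, -0.0343 to 0.1086 for Srebf1, and -0.054 to 0.1961, -0.05 to 0.2143 and -0.0112 to 0.1836 for the Insig2 probes.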
